A study of Mus musculus with 65 samples.

Results

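The 38 genes described here encode the enzymes and carriers that remove reactive oxygen species, keep thioredoxin and glutathione reduced, and sense oxidative stress. They were taken by name from the 55292 gene rows of the deposited table; the list was drawn up by function, with earlier results of these data known. All 38 names were found. The table holds 65 single outer hair cells (OHCs) picked by hand from the mouse cochlea at postnatal day 10. The 48 WT cells came from Slc26a5FlpO/+; Rosa26FSF-H2BEGFP/+ mice, in which a FlpO recombinase at the OHC gene Slc26a5 switches on a nuclear green fluorescent reporter. The 17 CKO cells came from mice that carried the same driver and reporter together with Atoh1Cre/+ and Casz1flox/flox, so that Cre and the floxed Casz1 alleles were present only in the CKO group. The product of Casz1 is a zinc finger protein that regulates transcription, and Atoh1 drives Cre in the hair cell lineage from before OHCs are mature. The labels name no animal, so each genotype was treated as 1 sample of cells: no difference between genotypes was tested, and intervals cover counting error only. The protocol text speaks of inner hair cells and induced OHCs, whereas the titles and the design name OHCs. It also lists N-acetyl-L-cysteine and ascorbate, both antioxidants, in the solution used to handle the cells of both groups.

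Superoxide dismutases turn superoxide into hydrogen peroxide, which catalase, the peroxiredoxins and the glutathione peroxidases then reduce. Peroxiredoxins take their electrons from thioredoxin, glutathione peroxidases from glutathione, and the reductases that recharge both carriers draw on NADPH. The transcription factor NRF2, encoded by Nfe2l2, is held down by KEAP1 and, when released, binds antioxidant response elements near many of these genes. OHCs have a high energy demand and are known as the cochlear cells most easily lost to noise, ageing and ototoxic drugs, in all of which oxidative stress is implicated.

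Each cell held between 7458126 and 17107710 counts, with a median of 11520603 in WT and 12269271 in CKO cells, and a median of 7585.5 and 7417 genes with a count. Slc26a5 stood at 931 CPM (counts divided by the total count, times 1000000) in WT and 1175 CPM in CKO cells and Ocm, another OHC gene, at 36667 and 49172 CPM, each with counts in all 65 cells. All 8 genes of the OHC marker list and all 6 of a general hair cell list were at 5 CPM or more. Among 8 supporting cell markers 4 reached 5 CPM and 2 were below 0.1 CPM in both groups; their summed level per cell had a median of 2794 CPM in WT (1031 to 5718) and 1741 CPM in CKO cells (907 to 4003), most of it S100a1, with the CKO cell higher in 24.4% of pairs. The general hair cell list had a median of 4267 and 3405 CPM (23.5% of pairs) and the OHC list 40140 and 51289 CPM (81.4%). Of 7 macrophage and 5 erythroid markers, 2 and 0 reached 5 CPM. So did 1 of 4 inner hair cell, 1 of 4 glia, 2 of 6 mesenchyme, 1 of 3 endothelial and 2 of 4 neuron markers. The inner hair cell marker Slc17a8 stood at 12.1 CPM in WT and 17.1 CPM in CKO cells. Snap25 of the neuron list stood at 186 and 171 CPM, and Lum of the mesenchyme list at 16.5 and 0.01 CPM. Casz1 itself stood at 53.3 CPM in WT and 46.2 CPM in CKO cells; counts over the whole gene do not show whether the floxed part was deleted. A list of 11 stress response genes, among them Hspa5, Ddit3 and Fos, summed to a median of 994 CPM per WT cell (173 to 4537) and 3820 CPM per CKO cell (475 to 8839). The share of counts from genes of mitochondrial DNA had a median of 6.52% in WT and 4.76% in CKO cells. The pattern of Xist was seen in 9 WT and 15 CKO cells, 8 of these WT cells being numbered 1 to 11. The opposite pattern, at least 10 counts of Y genes and fewer than 10 of Xist, was seen in 37 WT and 0 CKO cells. The part of these marker lists, stress genes, mitochondrial share and sex in the differences below was not tested. WT cells are also given in 3 runs of consecutive numbers (1 to 11, 12 to 45 and 46 to 48) that earlier results of these data had told apart; the labels do not say what the runs are.

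NRF2 binds the core TGACNNNGC, in which N is any base, and it is shown here because it is the sequence feature most often tied to this gene set. The core was searched on both strands (GCNNNGTCA on the reverse) in RefSeq promoters of GRCm38.p6, 300 bases long from 250 before to 50 after each gene's start; no other motif was searched. Of the 38 genes 33 had an entry, and 7 of those 33 (21.2%) held the core, beside 3781 of 27025 genes in the whole table (13.99%). The 7 stretches follow 5′ to 3′ on the strand of the gene, with the core in capitals.
Srxn1, chr2:152105536-152105573, plus strand: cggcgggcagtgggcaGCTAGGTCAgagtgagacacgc
Gclm, chr3:122245407-122245447, plus strand: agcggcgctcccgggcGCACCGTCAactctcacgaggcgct
Prdx1, chr4:116685450-116685490, plus strand: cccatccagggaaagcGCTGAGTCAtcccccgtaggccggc
Txnrd1, chr10:82859098-82859138, plus strand: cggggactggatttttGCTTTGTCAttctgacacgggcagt
Sod1, chr16:90220690-90220730, plus strand: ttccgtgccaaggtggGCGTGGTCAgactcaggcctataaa
Gstm5, chr3:107895796-107895836, plus strand: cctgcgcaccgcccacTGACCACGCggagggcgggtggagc
Nfe2l2, chr2:75704879-75704913, minus strand: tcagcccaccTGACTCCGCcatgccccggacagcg
In Gstm5 and Nfe2l2 the core reads along the gene, and in the other 5 it lies on the opposite strand. In Srxn1 it starts 28 bases after the annotated start and in Sod1 it starts 56 bases before it. The 7 genes did not share a direction between genotypes: pooled levels of Srxn1, Gclm and Txnrd1 were lower in CKO cells, and those of Sod1, Gstm5, Nfe2l2 and Prdx1 were higher. A match in these windows is a description of letters and says nothing on binding.

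The list as a whole was expressed at nearly the same level in the 2 genotypes. Pooled over cells, its 38 genes took 0.627% of all counts in WT and 0.625% in CKO cells. Summed per cell they reached 4363 to 8552 CPM in WT cells, with a median of 6203, and 4170 to 8005 CPM in CKO cells, with a median of 6092. The ranges overlapped almost wholly, and when each CKO cell was set against each WT cell the CKO cell was the higher in 50.9% of 816 pairings. Each cell held counts of a median of 24 of the 38 genes in both groups (18 to 30 in WT, 18 to 26 in CKO).

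Of the 38 genes 33 were measured, meaning at least 5 CPM in the higher group, and 5 were not (Gpx7, Gpx8, Gsto1, Nqo1 and Hmox1). Among the 33, 15 were higher in CKO cells (45.5%), beside 50.4% of all 10842 genes measured the same way, and 18 were lower. A pooled level at least 2-fold higher in CKO cells was found for 1 member, Prdx4 (3.03% beside 15.1% of all genes). A level at least 2-fold lower was found for 4, Srxn1, Cat, Gss and Gclc (12.1% beside 14.5%). The median log2 ratio of CKO over WT was -0.053 over the 33 measured members and 0.0092 over all genes. No member was higher in the CKO cell in 75% or more of the cell pairs (0.756% of all genes were) or in 25% or fewer (0.775%). The member shares ran from 33.3% for Srxn1 to 63.5% for Hmox2.

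The pooled CKO level lay above each of the 3 WT runs for 12 members (36.4% beside 28.1% of all genes): Sod1, Prdx2, Prdx4, Prdx6, Txn2, Txnip, Glrx3, Glrx5, Gstm5, Nfe2l2, Hmox2 and Park7. It lay below each of them for 7 (21.2% beside 18.1%): Cat, Gpx3, Txn1, Txnrd1, Gclm, Gss and Gsr. The other 14 measured members lay between the runs or, for Srxn1, tied with the last run at 0. Exons of 9 members overlap a gene on the other strand, from which unstranded counts cannot be told apart: Prdx2, Prdx5, Txnrd2, Txnip, Gclm, Gss, Gstm5, Keap1 and Hmox2.

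**Figure D1:**
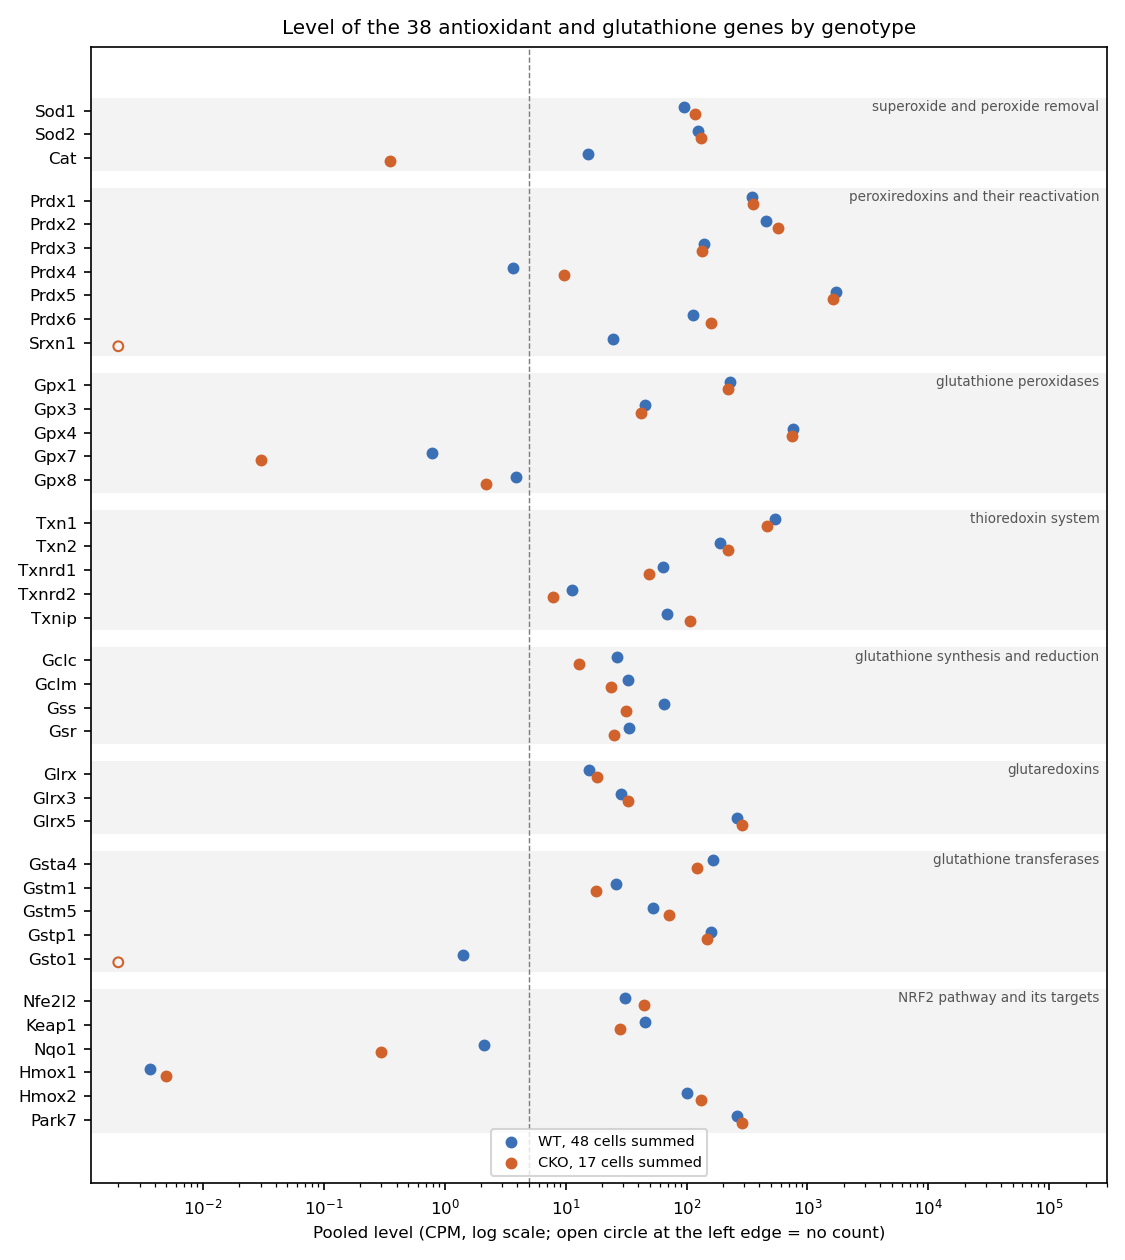
Pooled level of each of the 38 members in CPM on a log axis, WT in blue (48 cells summed) and CKO in orange (17 cells summed), in groups by role; the dashed line is 5 CPM and open circles at the left edge stand for no count. Most pairs of points lie close together, and Srxn1, Cat and Prdx4 are the measured members farthest apart.

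**Figure D2:**
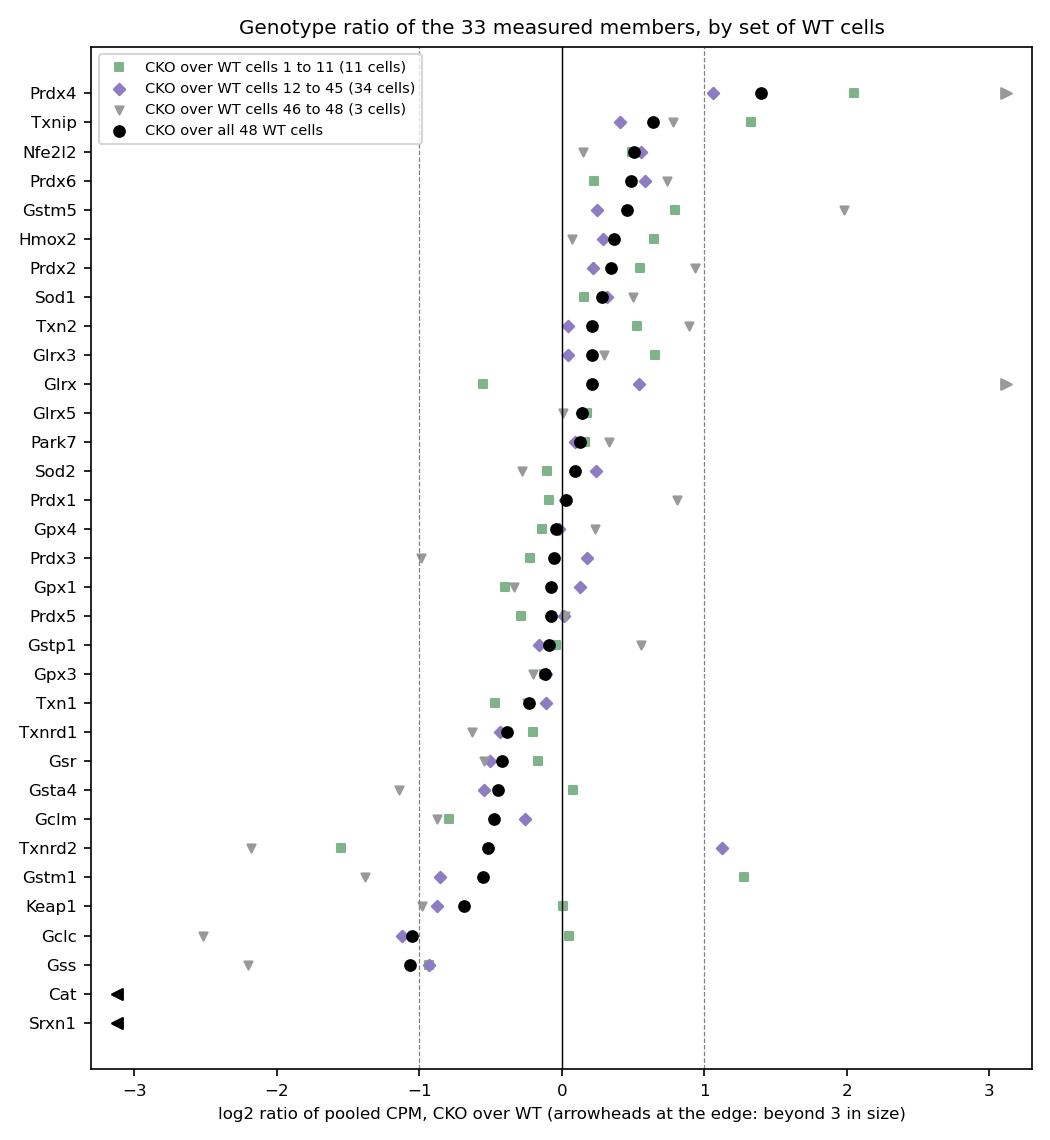
log2 ratio of the pooled CPM of CKO over WT for the 33 measured members, with all 48 WT cells (black) or with a single run of WT numbers (1 to 11, 12 to 45, 46 to 48) as the divisor; dashed lines mark 2-fold and arrowheads values beyond 3 in size. Sod2, Prdx1, Prdx3, Prdx5, Gpx1, Gpx4, Txnrd2, Gclc, Glrx, Gsta4, Gstm1, Gstp1 and Keap1 change side of 0 with the WT cells used. Gss lies below 0 against each run.

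Sod1, the cytosolic superoxide dismutase, ran from 6.33 to 227 CPM per WT cell with a median of 92.7, and from 30.3 to 317 CPM per CKO cell with a median of 78.3. Its pooled levels were 96.1 and 117 CPM. The pooled level was higher in CKO cells while the median was lower, and 1 CKO cell held 16.9% of the CKO counts. Sod2, the mitochondrial enzyme, stood at 125 and 133 CPM with counts in 43 of 48 WT and 15 of 17 CKO cells. Summed with catalase, the group had a median of 225 CPM per WT cell and 218 CPM per CKO cell.

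Cat (chr2:103453849-103485160, minus strand), the peroxisomal catalase, was at 0 in the median cell of both groups. Its highest cell held 187 CPM in WT and 4.73 CPM in CKO. At least 10 counts were found in 7 of 48 WT cells and in 1 of 17 CKO cells. The pooled levels of 15.2 and 0.355 CPM gave a log2 ratio of -5.42 (95% interval -5.78 to -5.09), yet the CKO cell was the higher in 51.0% of cell pairs, because most cells of both groups had no count. The pooled difference therefore rests on 7 WT cells, whose median was 120 CPM, and CKO cell 3 held 84.5% of the 71 CKO counts, without which the ratio was -8.02. By WT run the pooled level was 3.38, 18.9 and 29.8 CPM.

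Peroxiredoxins, with Srxn1, were the most abundant role group, with a summed median of 2736 CPM per WT cell (1733 to 4097) and 2704 CPM per CKO cell (1719 to 4504). Prdx5, which acts in mitochondria, peroxisomes and the cytosol, made up most of it: 888 to 2707 CPM per WT cell with a median of 1762, and 1040 to 2948 CPM per CKO cell with a median of 1533. Exon length was taken as the union of all annotated exons of a gene. It can exceed the length of a single transcript, so comparisons between genes are approximate. Per kilobase of this length, pooled Prdx5 reached 806 CPM per kb in WT and 764 in CKO cells, the highest of the 38. It was followed by Txn1 at 514 and 438 and Gpx4 at 443 and 432 CPM per kb, and then, in WT cells, by Gpx1 at 160. Prdx5 had a count in every cell and its groups overlapped almost wholly (pooled log2 ratio -0.08, interval -0.08 to -0.07).

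Prdx2, a cytosolic peroxiredoxin, ran from 94.6 to 1602 CPM per WT cell with a median of 392, and from 151 to 1207 CPM per CKO cell with a median of 461. Its pooled log2 ratio was 0.35 (0.34 to 0.36) and the CKO cell was higher in 61.9% of pairs. By WT run it stood at 391, 492 and 299 CPM, below the CKO level of 573 CPM in each. Junb and Rnaseh2a overlap it on the other strand.

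Prdx1, the other abundant cytosolic form, had a median of 330 CPM in WT (1.13 to 850) and 382 CPM in CKO cells (0.0815 to 827). One cell in each group was nearly without it, although every cell had at least 1 count. Its pooled log2 ratio of 0.03 took the other sign with some scalings and runs. Prdx3, the mitochondrial form, stood at 140 and 135 CPM. Prdx6, which uses glutathione rather than thioredoxin, had a median of 99.6 CPM in WT (0 to 445) and 118 CPM in CKO cells (0.119 to 422), a pooled log2 ratio of 0.48 (0.47 to 0.50), and counts in 38 of 48 WT and all 17 CKO cells.

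Prdx4, the peroxiredoxin of the endoplasmic reticulum, was sparse. At least 10 counts were found in 5 of 48 WT cells, the highest at 78.5 CPM, and in 2 of 17 CKO cells, the highest at 70.6 CPM. Its pooled levels of 3.67 and 9.65 CPM gave a log2 ratio of 1.40 (1.31 to 1.49). That ratio rests on CKO cells 11 and 14: it was 0.66 without the former and 0.32 without the latter, both below 2-fold. Prdx4 lies on chromosome X. Among cells with the Xist pattern its levels were 2.94 CPM in WT and 4.81 CPM in CKO cells, both under 5 CPM (log2 ratio 0.71). The part of sex in the difference was not tested.

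Srxn1 (chr2:152105516-152111376, plus strand) encodes sulfiredoxin, which repairs peroxiredoxins whose active cysteine has been overoxidised, and is a textbook NRF2 target. It was the one measured member with no count in any CKO cell. In WT cells the lowest and the median were 0 and the highest was 368 CPM. At least 10 counts were found in 10 of 48 WT cells, 3 of cells 1 to 11, 7 of cells 12 to 45 and 0 of cells 46 to 48, with a median of 93.5 CPM in those 10. At least 1 count was found in 16 WT cells, and in 12 when each cell was thinned to 7458126 counts. None of 17 CKO cells had a count. Were the cells independent draws, this would allow a count in up to 17.6% of such cells, but their animals are not named. Pooled, Srxn1 stood at 24.6 CPM in WT cells, and a floor of 3 counts over the CKO group put it 1636-fold lower there. That figure reflects the counting of reads only. As the WT counts came from few cells, it sets no lower bound on the difference between genotypes. WT cell 44 held 35.1% of the WT counts; without it the WT level was 16.3 CPM. As 38 of 48 WT cells also had fewer than 10 counts, a CKO cell without the gene looks like most WT cells.

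Gpx4, which reduces lipid peroxides in membranes and protects cells from ferroptosis, had a count in every cell. It ran from 302 to 1581 CPM in WT cells with a median of 734, and from 414 to 1230 CPM in CKO cells with a median of 691. Its pooled log2 ratio was -0.04 (-0.05 to -0.03) and the CKO cell was the higher in 49.0% of pairs, so that neither scale separated the genotypes. A pseudogene copy, Gpx4-ps2, had 6464 counts over all cells, and reads shared with it may have been split.

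Gpx1, the general cytosolic enzyme, had a median of 205 CPM in WT (0 to 559) and 215 CPM in CKO cells (0 to 484). Its pooled ratio was -0.07 and its median higher in CKO cells, a difference in sign between 2 measures of nearly equal groups. Gpx3, the secreted plasma form, stood at 45.5 and 41.9 CPM with at least 10 counts in 26 of 48 WT and 7 of 17 CKO cells. Gpx7 and Gpx8, both of the endoplasmic reticulum, were under 5 CPM in both groups. Gpx7 had at least 10 counts in 1 cell, and Gpx8 in 3. All 3 measured glutathione peroxidases were lower in CKO cells, as were 5373 of all 10842 measured genes. Their median log2 ratio was -0.073, beside 0.0092 for all genes, and 3 genes are too few to be told from the background. Gpx4 was on the other side of 0 with median-of-ratios factors (0.0050) and against WT cells 46 to 48 (0.23). Gpx1 was above 0 against WT cells 12 to 45 (0.13), with the mean of per-cell CPM (0.041), with their median (0.071) and without CKO cell 11 (0.023).

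Txn1, the cytosolic thioredoxin, ran from 101 to 1356 CPM per WT cell with a median of 515, and from 216 to 795 CPM per CKO cell with a median of 485. Its pooled log2 ratio was -0.23 (-0.24 to -0.22), with WT runs at 639, 497 and 544 CPM against 461 CPM in CKO cells. The mitochondrial Txn2 went the other way, at 190 and 220 CPM with counts in 45 of 48 WT and all 17 CKO cells. Txnrd1, the cytosolic reductase that recharges thioredoxin, stood at 63.4 and 48.6 CPM (log2 ratio -0.38).

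Txnrd2, the mitochondrial reductase, had at least 10 counts in 6 of 48 WT and 2 of 17 CKO cells, with highest cells of 120 and 106 CPM. CKO cell 10 held 81.5% of the CKO counts, and the pooled log2 ratio of -0.52 was -1.55, 1.12 and -2.18 against the 3 WT runs, so no direction can be given. Without the top cell of each group it was -2.42. Txnip, which binds and inhibits thioredoxin, had a median of 33.3 CPM in WT (0 to 414) and 59.3 CPM in CKO cells (0 to 387). Its pooled log2 ratio was 0.64 (0.62 to 0.66) and 0.41 without the top cell of each group. By WT run it stood at 42.6, 80.8 and 62.4 CPM, each below the 107 CPM of CKO cells.

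All 4 genes of glutathione synthesis and reduction were lower in CKO cells, as were 5373 of all 10842 measured genes. Their median log2 ratio was -0.76, the lowest of the 8 role groups. A set of 4 genes is too small to be told from the background. Against the 3 WT runs the median was -0.48, -0.72 and -1.54, with all genes at 0.057, 0.0014 and 0.15. Against WT cells 1 to 11 Gclc was on the other side of 0, so that 3 of 4 were lower there. Among cells with the Xist pattern all 4 were lower, with a median of -0.48 beside 0.066 for all genes. Summed per cell, the 4 genes had a median of 146 CPM in WT (0 to 499) and 78.6 CPM in CKO cells (0 to 293). The ranges overlapped over the whole CKO span, and the CKO cell was the higher in 31.9% of pairs. In the plot of role groups per cell the low CKO median is visible beside WT cells that reach 0 as well.

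Gss (chr2:155563181-155592810, minus strand), glutathione synthetase, which adds the last amino acid, had a median of 13.1 CPM in WT (0 to 325) and 2.55 CPM in CKO cells (0 to 176). Pooled levels of 65.4 and 31.3 CPM gave a log2 ratio of -1.06 (-1.10 to -1.02). At least 10 counts were found in 30 of 48 WT and 10 of 17 CKO cells, and within those cells the medians were 86.7 and 11.9 CPM. The shares of cells were thus close and the level within them was not. WT runs stood at 59.9, 59.9 and 144 CPM, all above the CKO level. Leaving out any 1 of 15 cells took the ratio just under 2-fold, the smallest being -0.94. Acss2, Gssos1 and Gssos2 overlap Gss on the other strand. Higher stress gene levels and lower supporting cell markers, general hair cell markers and mitochondrial share in CKO cells, given above, accompany this difference, and their part in it was not tested.

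Gclc (chr9:77754535-77794485, plus strand), the catalytic subunit of glutamate-cysteine ligase, which sets the rate of glutathione synthesis, had at least 10 counts in 20 of 48 WT and 6 of 17 CKO cells. Its highest cells held 184 and 84.9 CPM. Pooled levels of 26.8 and 12.9 CPM gave a log2 ratio of -1.05 (-1.11 to -0.99). The direction depended on the WT cells used, which stood at 12.5, 28.2 and 74.0 CPM by run: against cells 1 to 11 the ratio was 0.049. Leaving out any 1 of 22 cells took it under 2-fold, to -0.90 at the least, without CKO cell 6 it was -1.78, and among cells with the Xist pattern it was -0.37.

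Gclm, the modifier subunit of the same ligase, had at least 10 counts in 22 of 48 WT and 8 of 17 CKO cells, with highest cells of 201 and 143 CPM. Medians within those cells were 62.9 and 30.1 CPM, and the pooled log2 ratio was -0.48 (-0.52 to -0.43), or -1.06 without the top cell of each group, -1.25 without CKO cell 14 alone and -1.83 among cells with the Xist pattern. Gsr, the reductase that returns oxidised glutathione to its working form, stood at 33.5 and 25.1 CPM (log2 ratio -0.42), with at least 10 counts in 26 of 48 WT and 7 of 17 CKO cells.

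**Figure D3:**
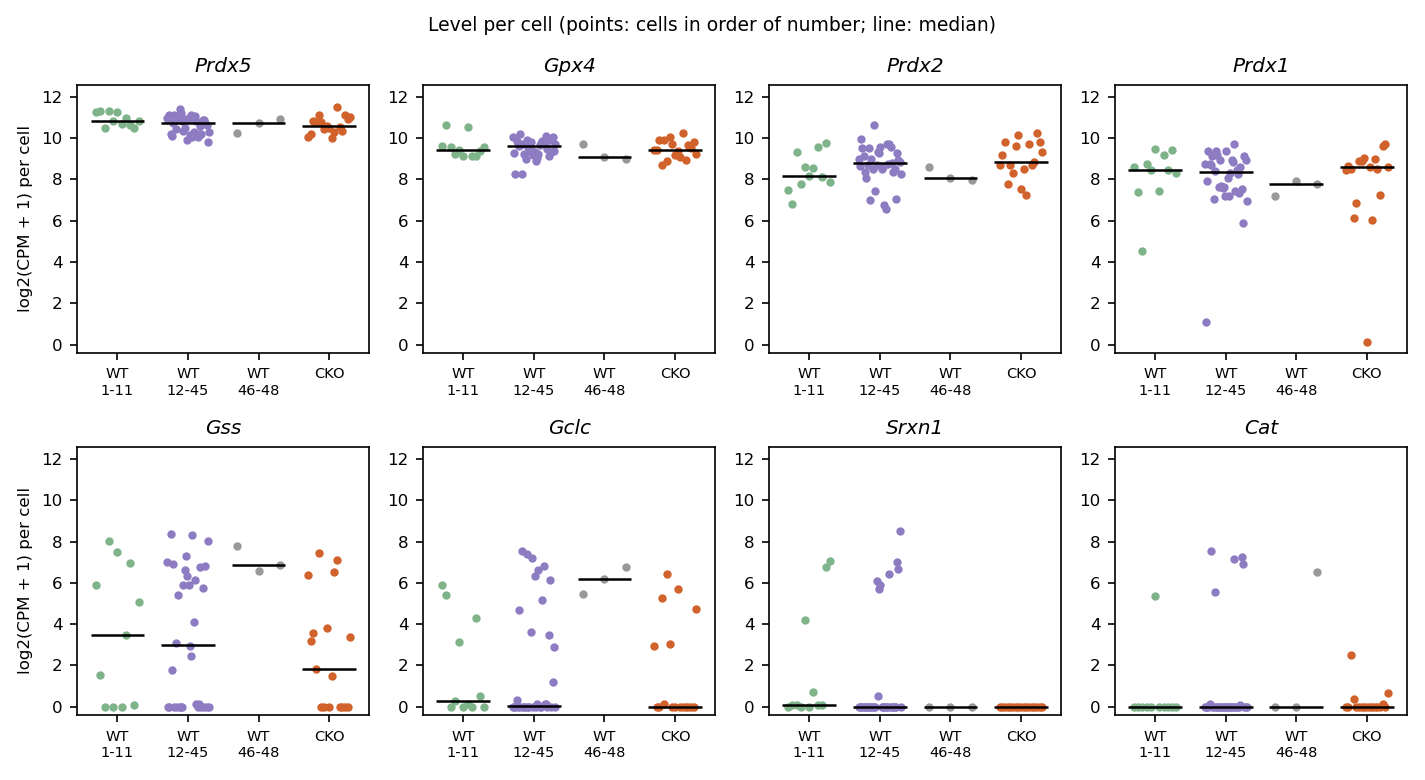
Level per cell, as log2(CPM + 1), of 8 members in WT cells 1 to 11, 12 to 45, 46 to 48 and in CKO cells; points are cells and lines medians. Prdx5 and Gpx4 are high in every cell, Prdx1 is nearly absent from 1 WT and 1 CKO cell, and Gss, Gclc, Srxn1 and Cat are at or near 0 in many cells of both genotypes.

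Glutaredoxins are small proteins that use glutathione to reduce protein disulfides or to carry iron-sulfur clusters. All 3 glutaredoxins were higher in CKO cells, beside 50.4% of all genes, with a median log2 ratio of 0.21 and the same sign under each scaling. A set of 3 genes is too small to be told from the background. Glrx was lower against WT cells 1 to 11 (-0.56) and among cells with the Xist pattern (-0.16). Glrx5, the mitochondrial cluster carrier, ran from 88.0 to 575 CPM in WT cells with a median of 234, and from 0 to 682 CPM in CKO cells with a median of 281. It was missing from 1 CKO cell and no WT cell. Glrx3 stood at 28.6 and 33.1 CPM, and Glrx at 15.7 and 18.1 CPM with at least 10 counts in 9 of 48 WT and 4 of 17 CKO cells. Summed, the group had a median of 275 CPM in WT and 331 CPM in CKO cells, with the CKO cell higher in 57.4% of pairs.

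Glutathione transferases attach glutathione to reactive compounds. Gsta4, which clears the lipid peroxidation product 4-hydroxynonenal, had a median of 136 CPM in WT (0 to 1128) and 131 CPM in CKO cells (0 to 331), and pooled levels of 166 and 122 CPM. WT cell 21 alone held 11.1% of the WT counts. The pooled log2 ratio of Gsta4 was -0.45, but 0.079 against WT cells 1 to 11 and 0.18 among cells with the Xist pattern. Gstp1 stood at 158 and 149 CPM; its neighbours Gstp2 and Gstp3 had 904 and 471 counts over all cells, so that reads may have been divided between them. Gstm5 stood at 52.4 and 71.9 CPM and was the one member of this group that was higher in CKO cells. Gstm1 had at least 10 counts in 15 of 48 WT and 3 of 17 CKO cells, highest 137 and 132 CPM, and nearly equal medians within them of 89.2 and 90.7 CPM. Its pooled log2 ratio of -0.55 became 1.28 against WT cells 1 to 11, 0.25 among cells with the Xist pattern, and -1.38 without CKO cell 3, which held 47.4% of the CKO counts. Gsto1 was under 5 CPM, with 774 counts, nearly all in WT cell 12.

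Nfe2l2, the gene of NRF2, had a median of 2.53 CPM in WT (0 to 255) and 6.02 CPM in CKO cells (0 to 130). At least 10 counts were found in 26 of 48 WT and 10 of 17 CKO cells. Pooled levels of 31.2 and 44.3 CPM gave a log2 ratio of 0.51 (0.47 to 0.54), and the WT runs stood at 31.4, 30.2 and 39.9 CPM, each below the CKO level. Keap1, its inhibitor, had a median of 0.943 CPM in WT (0 to 296) and 0.0803 CPM in CKO cells (0 to 135), with at least 10 counts in 24 of 48 and 6 of 17 cells. Its log2 ratio was -0.69 (-0.73 to -0.64) pooled and 0.0072 against WT cells 1 to 11, so its direction depends on the WT cells used. In cells with 10 counts or more the medians of Keap1 were 58.0 and 63.6 CPM.

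Of the 6 genes grouped as the NRF2 pathway and its targets, 4 were measured. Nfe2l2, Hmox2 and Park7 were higher and Keap1 lower in CKO cells, with a median log2 ratio of 0.25 (50.4% of all genes were higher). As Nqo1 and Hmox1 were not measured, this median does not describe NRF2 targets. Srxn1, the NRF2 target described above, is counted with the peroxiredoxins and was lower. Members of the other role groups were not sorted by whether NRF2 targets them, so Srxn1 need not be the only target among them. Nqo1, a quinone reductase, had at least 10 counts in 2 WT and 1 CKO cells, and Hmox1, the inducible heme oxygenase, had 3 counts in all 65 cells and 10 in none. The constitutive heme oxygenase Hmox2 had at least 1 count in every cell, with a median of 101 CPM in WT (0.0892 to 442) and 110 CPM in CKO cells (0.119 to 304). Park7, the redox chaperone DJ-1, ran from 80.9 to 518 CPM in WT cells with a median of 241, and from 85.1 to 557 CPM in CKO cells with a median of 278 (pooled log2 ratio 0.13).

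**Figure D4:**
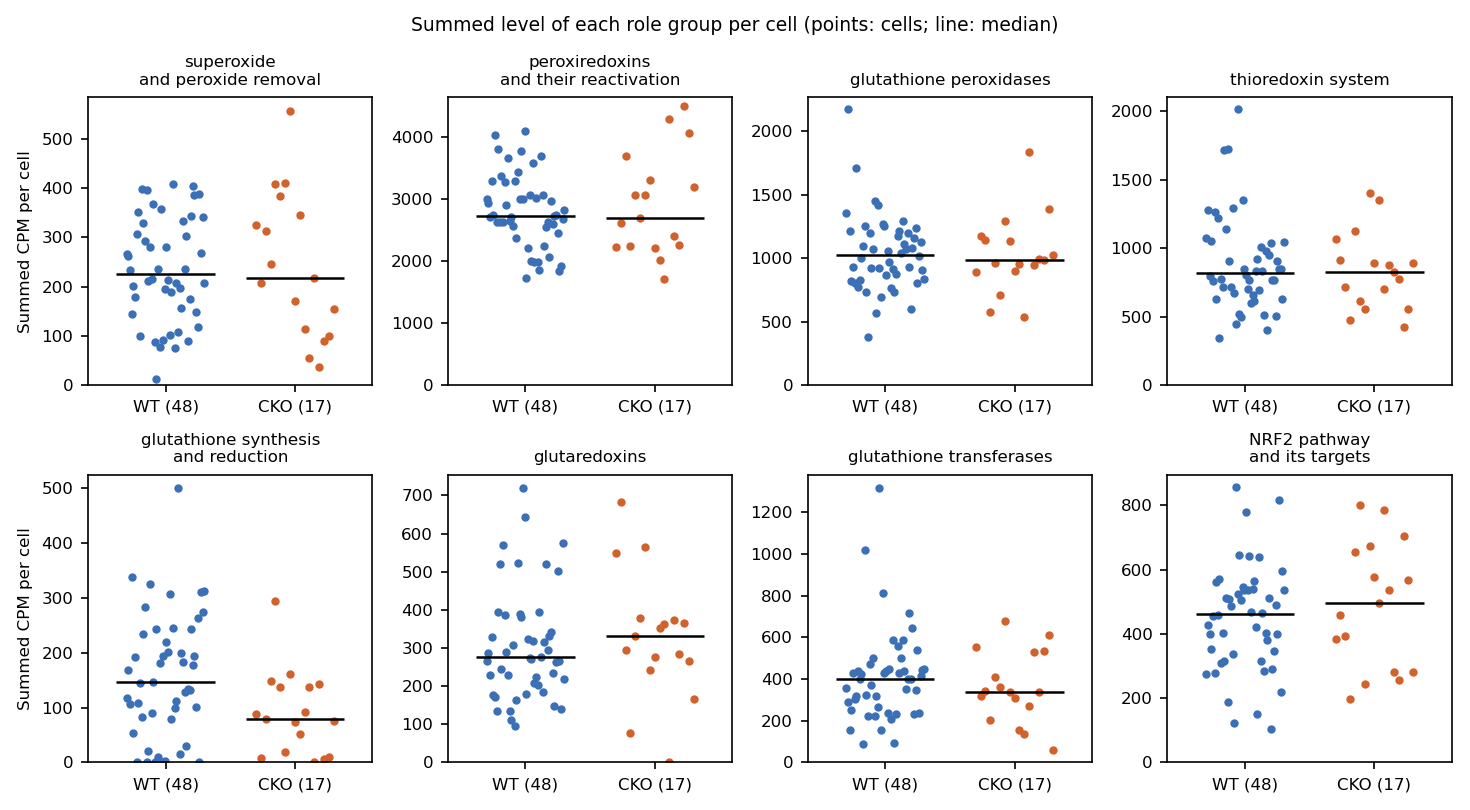
Summed CPM per cell of the members of each role group in the 48 WT (blue) and 17 CKO cells (orange); points are cells, lines medians, and each panel has its own axis from 0. The ranges overlap in every panel, and the largest shift of the median is in glutathione synthesis and reduction, from 146 to 78.6 CPM.

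Beside the 38, a list of 75 further genes for glutathione use, NADPH supply, iron storage and NRF2 partners was read. Of these 49 were measured. In CKO cells 24 were higher (49.0%, background 50.4%) and 25 lower, and the median log2 ratio was -0.053. At least 2-fold higher were 6 (12.2%, background 15.1%) and at least 2-fold lower 8 (16.3%, background 14.5%). Idh1, which makes NADPH in the cytosol, stood at 83.4 CPM in WT and 17.3 CPM in CKO cells (log2 ratio -2.27), with at least 10 counts in 26 of 48 WT and 6 of 17 CKO cells and WT runs at 47.3, 91.5 and 158 CPM. The ratio of Idh1 was -2.96 without CKO cell 1 and -1.19 among cells with the Xist pattern. Mgst1, a microsomal transferase, stood at 1.82 and 32.7 CPM, with at least 10 counts in 1 WT and 4 CKO cells. Maff, a small MAF partner of NRF2, stood at 1.55 and 9.22 CPM, with at least 10 counts in 2 and 6 cells. In the same list 3 of 7 measured NRF2 targets were higher in CKO cells (42.9%, background 50.4%), with a median log2 ratio of -0.14. Of 7 measured NRF2 partners and regulators 5 were higher (71.4%), with a median of 0.58. Both sets are too small to be told from the background. In WT cells Mgst1 and Maff both rest on 1 cell: without the top cell of each group Mgst1 stood at 0.0019 and 20.4 CPM and Maff at 0.088 and 6.76 CPM.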

How the data were processed

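The authors deposited 1 table of whole-number read counts per gene for 65 single cells, whose libraries were made with a full-length kit without molecular identifiers. HISAT2 2.2.1, StringTie 2.2.1, featureCounts 2.0.1 and mm10 are named per the submitters' processing notes; the tool behind the final numbers, its annotation and its strand setting were not given in the sources used here. No 2 of the 2080 pairs of cells held identical counts.

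For CPM, each genotype's cells were added up gene by gene and divided by their total. Ratios carry exact conditional (Clopper-Pearson) 95% intervals, a group at 0 was set to a floor of 3 counts, and cell pairs with equal values counted as 0.5. Genes were matched by symbol to GENCODE M21 (53292 of 55292 rows, 96.38%) for positions and exon length, the union of all annotated exons. Alternatives used TMM factors (edgeR 4.0.16) and median-of-ratios factors (DESeq2 1.42.0). The script was tested on simulated data with 200 changed genes. No doublet caller was run, as cells were picked singly.

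Values by cell are given for the 12 measured members with the largest log2 ratio, the 8 with the highest CPM, and Nfe2l2 and Keap1, and of the other redox genes for those with the largest ratios; remaining members are given by range and count or by pooled level. Members and lists were chosen with earlier results of these data known.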

Additional observations from a re-analysis of the deposited data

How the results depend on the processing

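No paired analysis was possible because a cell's number is only its name, and no genotype difference was tested. The number of members at least 2-fold apart was 5; it was 3 with the median of per-cell CPM (21 members had a value), 9 against WT cells 46 to 48, 3 with a 20 CPM filter, and 3 to 5 with each cell left out in turn. The median log2 ratio over members was -0.053; the mean was -0.51, each cell left out gave -0.089 to 0.020, and the other settings gave -0.23 to 0.12. Members higher in CKO cells numbered 12 to 17 with each cell left out, and the median of the other redox genes was -0.088 to 0.040. Against the 3 WT runs 16 of 33, 19 of 33 and 17 of 32 measured members were higher (all genes 52.3%, 50.1% and 54.4%). The side that held most members thus depended on the WT cells used. Of 62 alternatives for these summaries, 5 moved the value beyond a set tolerance, all given here. For a median the tolerance was the order-statistic interval of the main value (-0.38 to 0.21 for members), and for a count a set fold. Smaller changes were not counted. Among named genes at least 2-fold apart, the direction turned for Gclc (0.049 against WT cells 1 to 11) and Gstk1 (4.02 against 46 to 48). It also turned for Oplah (6.64 against WT cells 1 to 11, 4.54 against 46 to 48, 0.90 among Xist-pattern cells). Nnt turned as well (7.03 among Xist-pattern cells), and the cause of these turns was not tested. Of 212 values of 20 named members, 16 changed sign, in Gclc, Gpx1, Gpx4, Gstm1, Keap1, Prdx1, Prdx5 and Txnrd2. TMM, median-of-ratios and a total without mitochondrial and ribosomal genes shifted ratios by -0.043, 0.042 and -0.031. Of the members' nonzero values 8.66% were below 10 counts; how many zeros come from depth or capture was not tested. The number of CKO cells and the unnamed animals are further limits.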

Other observations

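Among redox genes outside the list, chosen after their values were seen, Gpx2 stood at 2447 CPM in WT and 2657 CPM in CKO cells, with a median of 2349 (857 to 4886) and 2291 CPM (1106 to 4973) per cell. Gpx2 encodes a glutathione peroxidase best known from the gut lining. Per kilobase of exon union, an approximate scale between genes, its pooled level was 760 and 825 CPM per kb, beside 806 and 764 for Prdx5. Counts of Gpx2 were found in every cell. Me1, which makes NADPH from malate, stood at 835 and 532 CPM (log2 ratio -0.65), with WT runs at 791, 861 and 772 CPM and the CKO cell higher in 31% of pairs; A330041J22Rik overlaps it on the other strand. The ferritin chains Fth1 and Ftl1 stood at 2573 and 1429 CPM in WT and 2299 and 1296 CPM in CKO cells.

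Further genes of the other redox list had the largest ratios from few cells. Sqor, which oxidises sulfide in mitochondria, had no WT count and 14.3 CPM in CKO cells, from 2 cells with at least 10 counts. Nxn stood at 7.06 and 0.23 CPM, Gstk1 at 11.2 and 1.34 CPM, Oplah at 8.0 and 1.92 CPM and Nnt at 7.97 and 2.82 CPM in WT and CKO cells. Without the top cell of each group these were 5.09 and 0.065, 7.41 and 0.11, 4.23 and 0, and 4.14 and 0.48 CPM. The log2 ratio of Nnt was -1.50, but -0.56, below 2-fold, without WT cell 47 and -4.04 without CKO cell 17. That of Oplah was -2.06, but -1.14 without WT cell 38 and -8.96 without CKO cell 5. Of 8 measured genes of NADPH supply, 3 were higher (37.5%, background 50.4%) and 5 lower in CKO cells.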
